A study of Mus musculus with 9 samples.

Results

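The genes of cholesterol and fatty acid synthesis were examined as a set of 34, chosen by name: 18 enzymes that lead from acetyl-CoA to cholesterol, 6 genes that sense or carry sterol, 6 enzymes of fatty acid synthesis, and 4 genes of the liver X receptors and cholesterol efflux. All 34 were found on the array by their gene name, with 48 probes, and the brightest probe of each gene was used. Each chosen probe was well above background on all 9 arrays, so all 34 entered the comparison over 28380 genes and unnamed features. The cells were satellite cells, the resident stem cells of skeletal muscle, of mice on the FVB strain background, labelled male and 2 months of age. The sort kept cells with integrin alpha-7 and CD34 on their surface and removed those with the endothelial and blood markers CD31, CD45 and CD11b or with Sca1. The animals were wild type mice (WT) or Bmi1-deficient mice (KO). The part of Bmi1 that is deleted, whether other cells lack it too and whether each sample is 1 animal or a pool are not given in the sources used here.

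Cholesterol is built from acetyl-CoA through mevalonate, isoprenoids and squalene. When the sterol content of the endoplasmic reticulum falls, the protein Scap escorts the membrane-bound factors SREBP-1 and SREBP-2 (genes Srebf1 and Srebf2) to the Golgi, where they are cleaved and from where they reach the nucleus. There they raise the sterol enzymes together, and SREBP-1 also raises fatty acid synthesis. Insig proteins hold Scap back when sterol is plentiful, and the liver X receptors (LXR), which sense oxysterols, raise efflux and Srebf1.

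There were 3 WT and 6 KO arrays of 1 colour. Descriptions give KO arrays a leading number, and arrays of equal number correlated with an r of 0.9944 to 0.9956 over the probes kept, and the 33 other pairs of arrays with 0.9622 to 0.9786. Each such pair was averaged, to give 3 KO samples (arrays 1 and 4 for the first, 2 and 5 for the second, 3 and 6 for the third) beside the 3 WT samples. The titles number the 6 KO arrays as 6 biological replicates, against the shared numbers and the correlations, so which of the 2 readings holds is not settled and the averaging is a choice made here. With all 9 arrays as separate samples 1199 features passed in place of 40, and 0 of the 34 genes did in either fit. Whether each replicate is a separate animal is not stated, and the p-values rest on the scatter among samples, part of which can be technical. Between 71.9% and 75.8% of spots were well above background on an array, 0 were saturated, and the number of arrays limits the precision. KO array 1 is KO by title, source and description but wild type by its genotype entry. Its r was 0.9953 with KO array 4, the other array of its pair. It was 0.9688 to 0.9712 with the KO arrays of the other pairs and 0.9622 to 0.9701 with the WT arrays. These ranges overlap, so the correlations do not settle its genotype. Bmi1 signal did not differ (0.10 ± 0.13 on the log2 scale, SE; limma adjusted p = 0.849), and Cdkn2a, a gene that Bmi1 represses, rose in KO by 3.28 ± 0.21 (adjusted p = 0.0157). The Bmi1 probe therefore gives no check of the labels. All 10 satellite cell markers, Pax7 among them, were well above background on all 9 arrays, as were Ptprc (CD45) and Itgam (CD11b), while Pecam1 (CD31) and Ly6a (Sca1) were on 2 of 3 WT and 6 of 6 KO arrays.

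Promoters of 27 of the 34 genes matched a RefSeq table (build GRCm38.p6) of windows from 250 bases before to 50 after each start, with 36 windows in all. They were searched on both strands for TCACNCCAC, the core of the element that SREBP binds, for CCAAT, which the factor NF-Y reads and which often stands beside it, for the E-box CACGTG and for the GC box GGGCGG. Each motif was counted on its own, so matches may overlap. CCAAT was in 14 of 18 windows of the sterol enzymes (77.8%), in 38.9% of the 18 windows of the other members and in 37.4% of the 32851 windows of all genes. The GC box was in 83.3%, 55.6% and 35.7%, and the E-box in 16.7%, 22.2% and 7.15%. The 18 windows of the sterol enzymes belonged to 15 genes, since Fdps, Fdft1 and Sqle had no window and some genes had more than 1. Counted by gene, CCAAT was in 14 of 15 sterol enzymes (93.3%), 50% of the other members and 41.1% of all genes. TCACNCCAC was in 1 window of a member, that of Hmgcs1, and in 1.24% of all windows. A match describes these letters and does not show that a factor binds. The 250 bases before the start are printed for 4 sterol enzymes that were high together in the same samples (chosen after their values were seen): Hmgcs1 (chr13:119690101-119690350, plus strand), Mvk (chr5:114444019-114444268, plus), Msmo1, the current name of Sc4mol (chr8:64733579-64733828, minus), and Idi1 (chr13:8885356-8885605, plus). Capitals mark CCAAT or its reverse complement ATTGG and, in Hmgcs1, TCACCCCAC.

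Hmgcs1: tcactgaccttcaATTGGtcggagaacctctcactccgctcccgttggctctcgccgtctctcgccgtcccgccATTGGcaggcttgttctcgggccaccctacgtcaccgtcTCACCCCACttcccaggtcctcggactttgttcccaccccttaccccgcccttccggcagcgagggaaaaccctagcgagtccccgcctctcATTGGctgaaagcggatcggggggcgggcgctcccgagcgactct

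Mvk: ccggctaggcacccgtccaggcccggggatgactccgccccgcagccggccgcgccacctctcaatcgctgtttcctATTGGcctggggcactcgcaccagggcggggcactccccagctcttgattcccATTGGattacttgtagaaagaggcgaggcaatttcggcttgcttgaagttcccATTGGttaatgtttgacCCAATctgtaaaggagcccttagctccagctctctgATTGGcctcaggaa

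Msmo1: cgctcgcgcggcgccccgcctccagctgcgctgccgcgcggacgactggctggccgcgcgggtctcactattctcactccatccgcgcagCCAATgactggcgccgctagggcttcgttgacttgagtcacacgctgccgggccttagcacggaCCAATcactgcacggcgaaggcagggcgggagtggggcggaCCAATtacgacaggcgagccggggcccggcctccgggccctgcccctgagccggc

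Idi1: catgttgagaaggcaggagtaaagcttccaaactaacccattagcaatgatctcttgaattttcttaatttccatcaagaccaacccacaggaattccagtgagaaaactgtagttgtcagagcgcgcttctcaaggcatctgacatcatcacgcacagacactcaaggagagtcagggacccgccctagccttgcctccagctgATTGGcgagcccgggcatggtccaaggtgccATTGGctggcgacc

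Hmgcs1 held 3 CCAAT matches in these 250 bases, Mvk 5, Msmo1 3 and Idi1 2.

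None of the 34 genes passed the test between KO and WT. The smallest limma adjusted p was 0.535, for Scd1, and 0 members had an unadjusted p under 0.05. Over all features 11.0% had one (6.77% higher and 4.21% lower in KO), and 0.141% passed (40 features). Of the members 23 were higher and 11 lower in KO, with a median log2 difference of 0.15 as compared to -0.02 over all features. At the chosen probes the groups of samples did not overlap for 2 members, Scd1 (higher) and Insig2 (lower), against 16.7% of all features (8.62% higher and 8.09% lower). Differences ranged from -0.51 (Srebf1) to 0.68 (Sc4mol). The 95% intervals were wide for some genes, reaching 1.94 for Lss, and narrow for others, from -0.26 to 0.26 for Nr1h2 and from -0.32 to 0.26 for Scap, so that the same lack of a call leaves room for changes of very different size. Without KO sample 1, 15 members were higher and 19 lower, and the median was -0.03. Scd1, Insig2 and the genes below beyond Sc4mol, Lss, Nsdhl, Srebf1, Srebf2, Nr1h2 and Nr1h3 were named after their values were seen.

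**Figure D1:**
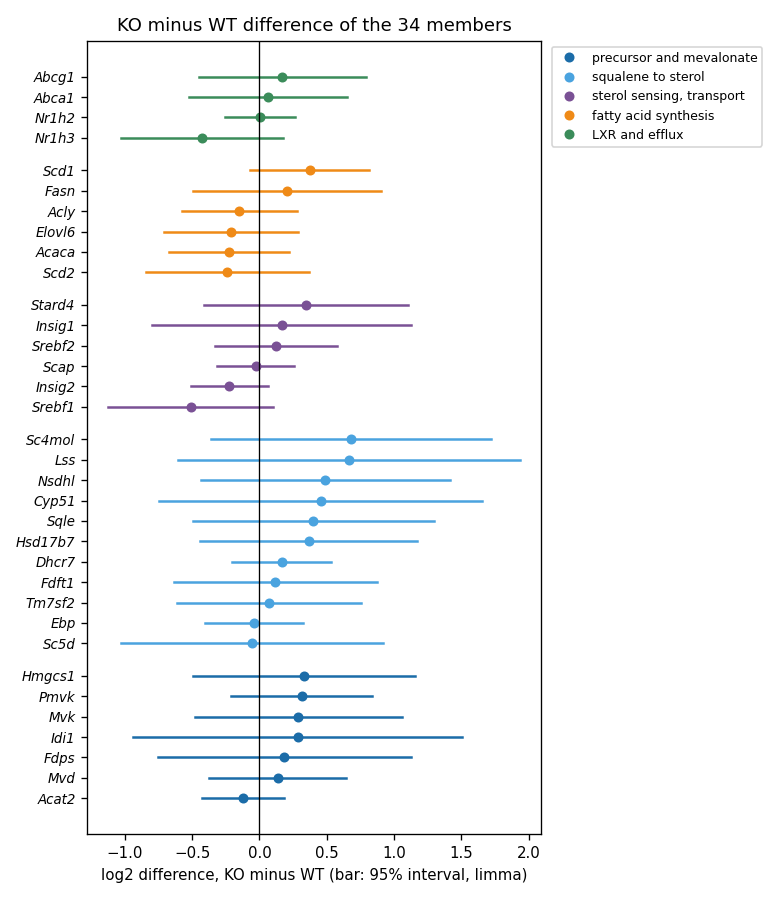
The log2 difference of KO over WT (x axis) is plotted for each of the 34 genes, coloured by role, with its 95% interval from limma (bars, 3 against 3 samples). Every interval spans 0, and those of Lss, Idi1 and Cyp51 are the widest.

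Among the sterol enzymes the spread between samples of a group was large beside the difference of the groups. The median difference was 0.29, with 15 of 18 higher in KO and 0 called. Slide 1 alone gave 0.29, slide 2 alone 0.25 and a block for slide 0.28. It was -0.03 without KO sample 1, 0.36 without KO sample 2, 0.46 without KO sample 3, and 0.44, 0.28 and 0.10 without WT samples 1, 2 and 3. Measured from the WT mean, the median enzyme lay at 0.91 in KO sample 1, 0.05 in KO sample 2 and -0.07 in KO sample 3, and at 0.36, -0.01 and -0.36 in WT samples 1, 2 and 3. KO sample 1 was thus far above the others, and WT sample 3 was the lowest. The SD between WT samples had a median of 0.37 over these enzymes and that between KO samples of 0.56, as compared to 0.21 and 0.21 over all features.

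**Figure D2:**
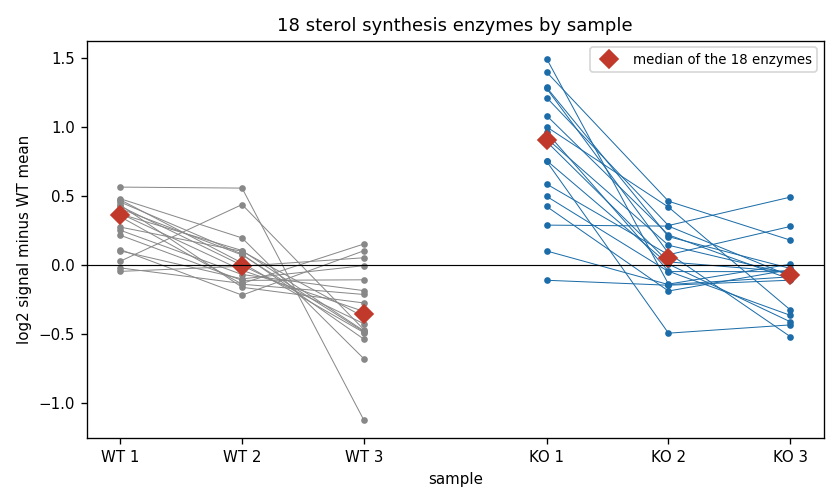
Each thin line joins the values of 1 of the 18 sterol synthesis enzymes in the samples of a group, as log2 signal minus the WT mean of that gene, and diamonds are the median of the 18. The lines join genes and carry no order of samples. KO sample 1 has the highest median (0.91) and WT sample 3 the lowest (-0.36).

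This pattern ran through most of the enzymes. KO sample 1 was the highest of the 3 KO samples for 17 of 18 (94.4%), where it was so for 33.7% of all features, and the highest of all 6 samples for 15 (83.3%, against 17.0%). The exception among KO samples was Acat2, which condenses acetyl-CoA at the head of the pathway, where KO samples 1 and 3 both read 5.37. WT sample 1 was the highest WT sample for 15 (83.3%, against 39.1%) and WT sample 3 the lowest for 13 (72.2%, against 38.9%). Both arrays of KO sample 1, which lie on different slides, were above the other 4 KO arrays for 16 enzymes (88.9%, against 19.3%). The median enzyme lay 0.87 and 0.90 above the WT mean on these arrays, and between -0.10 and 0.09 on the other KO arrays. Over the members, the scatter of 1 array between the arrays of a KO pair was an SD of 0.11.

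**Figure D3:**
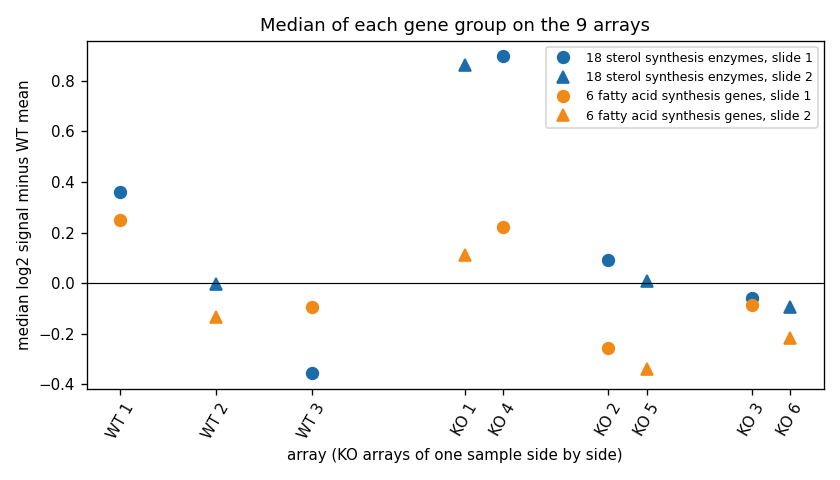
The median log2 signal of the 18 sterol enzymes (blue) and of the 6 fatty acid synthesis genes (orange), each minus the WT mean, is plotted for each of the 9 arrays, with the slide given by the symbol. KO arrays 1 and 4, on different slides, both lie near 0.9 for the sterol enzymes, and the fatty acid genes reach no higher than 0.25.

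In the first steps, from acetyl-CoA to farnesyl diphosphate, 6 of 7 genes were higher and 1 lower (median 0.28). Hmgcs1, which makes the substrate of mevalonate synthesis, had log2 signals (relative to the 75th percentile of the array, as for all levels here) of 2.05, 1.71 and 1.16 in WT and 2.56, 1.78 and 1.57 in KO. Its groups overlapped, and KO sample 1 was the highest. It differed by 0.33 ± 0.34 (SE; limma adjusted p = 0.803). Idi1, the isomerase of isopentenyl diphosphate, read 0.48, 0.10 and -0.51 in WT and 1.30, 0.11 and -0.49 in KO. KO sample 3 thus lay at the level of WT sample 3, while KO sample 1 lay 1.80 above it. Fdps, which makes farnesyl diphosphate, read 2.30, 1.71 and 1.60 in WT and 2.83, 1.83 and 1.51 in KO. The kinases Mvk and Pmvk differed by 0.29 and 0.31 and the decarboxylase Mvd by 0.13, each with overlapping groups. Acat2 was the one gene of these steps that was lower (-0.12 ± 0.12), with a range of 0.04 in KO. Its probe was the brightest of the members (mean log2 signal of 15.6 before scaling). Whether so bright a signal narrows the range was not tested.

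From squalene synthesis to cholesterol, 9 of 11 genes were higher and 2 lower (median 0.37). Sc4mol, the methyl sterol oxidase that removes methyl groups of lanosterol products, had the largest difference of all members. Its probe lies at 67196982 to 67197041 of chromosome 8 (mm9), and it read 1.46, 1.18 and 0.30 in WT and 2.38, 1.44 and 1.16 in KO. The WT mean was 0.98 ± 0.60 and the KO mean 1.66 ± 0.64 (SD, n = 3), a 1.60-fold higher signal in KO, with an interval from -0.36 to 1.72 (limma adjusted p = 0.651). The groups overlapped, and WT sample 3 stood lowest. Without it the difference was 0.34, and without KO sample 1 it was 0.32.

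Lss, which closes squalene epoxide into lanosterol, read -0.90, -0.91 and -2.59 in WT and -0.26, -1.18 and -0.98 in KO (probe at 76015992 to 76016051 of chromosome 10). WT sample 3 lay far below all other samples, for a WT range of 1.69. The difference was 0.66 ± 0.52 (limma adjusted p = 0.731), 0.10 without that sample, 0.39 without KO sample 1 and 0.17 within slide 2. Nsdhl, the dehydrogenase that works with Sc4mol, read -1.14, -1.32 and -1.79 in WT and -0.13, -1.21 and -1.44 in KO (probe at 70202803 to 70202862 of chromosome X). Here KO sample 1 alone was above all WT samples, and the difference of 0.49 ± 0.38 (limma adjusted p = 0.726) was 0.09 without it.

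The squalene epoxidase Sqle, the demethylase Cyp51 and the ketosteroid reductase Hsd17b7 differed by 0.40, 0.45 and 0.37, and squalene synthase Fdft1 by 0.12. Hsd17b7 was the enzyme with the least spread in WT, where it read -0.39, -0.36 and -0.29, and it read 0.65, 0.07 and -0.67 in KO. KO samples thus lay on both sides of a tight WT group. Dhcr7, which makes cholesterol from its last precursor in one branch, differed by 0.16, the sterol reductase Tm7sf2 by 0.07, the isomerase Ebp by -0.04 and the desaturase Sc5d by -0.06. Without KO sample 1 the difference of Cyp51, Fdft1, Tm7sf2, Idi1, Fdps, Mvk and Mvd at the chosen probe was negative. At the second probe of Fdft1 every KO sample (1.44, 1.21 and 1.15) lay above every WT sample (0.79, 0.99 and 0.78).

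Second probes gave the same direction for each of the 12 members that have more than 1 probe. The size differed between probes for Fdft1 (0.12 and 0.41), Mvk (0.29 and 0.09) and Hsd17b7 (0.37 and 0.12), and also for Acly (-0.15 and -0.01), Insig2 (-0.22 and -0.11), Tm7sf2 (0.07 and 0.16) and Srebf2 (0.12 and 0.05).

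Among the sensing and transport genes, 3 were higher and 3 lower. Srebf1, which encodes the SREBP that favours fatty acid synthesis, had the largest lower value. It read -1.28, -1.71 and -1.39 in WT and -1.92, -2.42 and -1.56 in KO (probe at 60012664 to 60012723 of chromosome 11). KO sample 3 lay within the WT range and the other KO samples below it. The difference was -0.51 ± 0.25 (interval -1.13 to 0.10; limma adjusted p = 0.541), with -0.67 in slide 1, -0.23 in slide 2, -0.45 with a block for slide and -0.28 without KO sample 2. Srebf2, which encodes the SREBP of the sterol enzymes, read 1.95, 2.21 and 2.12 in WT and 2.49, 2.26 and 1.90 in KO. KO sample 1 was the highest and KO sample 3 the lowest of all 6 samples. The difference was 0.12 ± 0.18 (limma adjusted p = 0.878), -0.02 without KO sample 1 and -0.01 within slide 2.

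Insig1 and Insig2 both encode proteins that retain Scap. Insig1, itself raised by SREBP, read 1.47, 0.93 and 0.87 in WT and 2.10, 0.93 and 0.73 in KO. It was high in the samples in which the sterol enzymes were high, WT sample 1 and KO sample 1, and differed by 0.16 ± 0.39 (limma adjusted p = 0.933). Insig2 read 2.07, 2.20 and 2.01 in WT and 1.90, 1.92 and 1.78 in KO. Every KO sample lay below every WT sample at this probe, and the difference was small (-0.22 ± 0.12, interval -0.51 to 0.06; limma adjusted p = 0.576). The arrays of KO sample 3 read 1.44 (array 3) and 2.12 (array 6), the widest gap of a KO pair among the members (0.68). Array 6 by itself lay within the WT range. At the second probe the difference was -0.11 and the groups overlapped, with KO sample 3 at 2.01. Stard4, a carrier of cholesterol between membranes, read -1.49, -1.37 and -2.04 in WT and -0.73, -1.41 and -1.73 in KO, and Scap differed by -0.03.

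**Figure D4:**
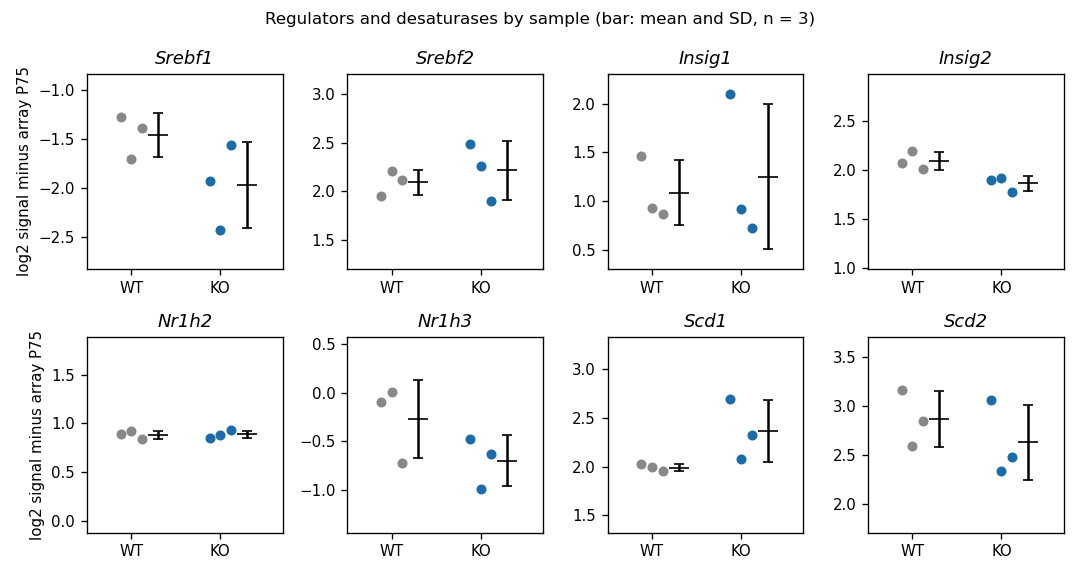
Points are the log2 signal of each sample relative to the 75th percentile of its array, for 6 regulators and the desaturases Scd1 and Scd2 in WT (grey) and KO (blue). Bars are mean and SD (n = 3), and each panel spans 2 log2 units. Insig2 and Scd1 are the genes whose groups do not overlap at the plotted probe, and Nr1h2 has the least spread.

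Of the 6 fatty acid synthesis genes 2 were higher and 4 lower in KO, with a median of -0.18. It was -0.10 in slide 1, -0.01 in slide 2 and -0.16 with a block for slide. From the WT mean the median gene lay at 0.17, -0.30 and -0.16 in KO samples 1, 2 and 3, and at 0.25, -0.13 and -0.09 in the WT samples. WT sample 1 was the highest WT sample for all 6. KO sample 1 thus stood lower for these genes than for the sterol enzymes, where the median was 0.91, and this difference was not tested. The fatty acid median was -0.06, -0.17 and -0.25 without WT samples 1, 2 and 3, and -0.24, -0.06 and -0.13 without KO samples 1, 2 and 3.

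Scd1, a desaturase that makes monounsaturated fatty acids, read 2.02, 1.99 and 1.95 in WT and 2.69, 2.07 and 2.32 in KO. All KO samples were above a very tight WT group, and the difference was 0.37 ± 0.18 (interval -0.07 to 0.81; limma adjusted p = 0.535) and 0.21 without KO sample 1. Scd2, its near relative, read 3.17, 2.59 and 2.84 in WT and 3.06, 2.34 and 2.48 in KO, and differed by -0.24 ± 0.25 (limma adjusted p = 0.805). The fatty acid synthase Fasn differed by 0.20, the citrate lyase Acly by -0.15, the elongase Elovl6 by -0.21 and the carboxylase Acaca by -0.23. All 4 probes of Acaca were lower (-0.15 to -0.23), and within slide 2 its value was 0.03.

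Of the liver X receptors, Nr1h3 (LXR alpha) had a lower mean in KO and Nr1h2 (LXR beta) nearly the same mean. Nr1h3 read -0.10, 0.01 and -0.72 in WT and -0.48, -0.99 and -0.63 in KO. WT sample 3 lay among the KO samples, and the difference was -0.43 ± 0.25 (interval -1.03 to 0.17; limma adjusted p = 0.613). This difference was -0.28 in slide 1, -0.72 in slide 2 and -0.50 with a block for slide. At the second probe it was -0.53 (limma adjusted p = 0.397 in a fit over all probes kept). There every KO sample (-0.85, -1.25 and -0.95) lay below every WT sample (-0.28, -0.42 and -0.76). Nr1h2 read 0.89, 0.92 and 0.84 in WT and 0.85, 0.88 and 0.93 in KO, a difference of 0.0037 ± 0.11, whose sign turned with the scaling. The LXR targets Abca1 and Abcg1, which export cholesterol, differed by 0.07 and 0.17 with overlapping groups. KO sample 1 was the highest KO sample for 1 of these 4 genes.

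Genes around the pathway were read from 5 further lists, and 0 of their genes passed in limma. Among 25 other lipogenic and SREBP or LXR target genes, 10 were higher and 15 lower (median -0.02). At an unadjusted limma p under 0.05, 2 were higher and 4 lower, beside 6.77% and 4.21% of all features. Gpam, which starts glycerolipid synthesis, read 0.62, 0.03 and 1.21 in WT and -1.06, -0.99 and -0.62 in KO. Every KO sample lay far below every WT sample, and the difference was -1.51 ± 0.32 (limma adjusted p = 0.158), with -1.55 at a second probe. It passed in 3 of 20 alternative fits, which are those on all 9 arrays in place of samples. The retinal reductase Rdh11 differed by -0.67 ± 0.14 (adjusted p = 0.153), Mylip, which marks lipoprotein receptors for degradation, by -0.78, and the lipogenic Thrsp by 0.75.

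Of 18 genes of sterol storage, transport and oxysterols, 11 were higher and 7 lower (median 0.24). At an unadjusted limma p under 0.05, 4 were higher and 1 lower, beside 6.77% and 4.21% of all features. Among the 4 higher genes was Cyp7b1, well above background on 0 of 3 WT and 4 of 6 KO arrays. It passed the filter only through the group in which it was high. Soat2, which esterifies cholesterol, read -4.64, -4.61 and -5.17 in WT and -3.12, -3.64 and -3.85 in KO, a difference of 1.27 ± 0.25 (limma adjusted p = 0.143) at low signal. It passed in 2 of the fits on all 9 arrays, as did Rdh11. The sterol hydroxylase Cyp27a1 differed by 0.84, the transporter Abca7 by 0.39 and the lipoprotein receptor Vldlr by -0.76. The isoprenoid branch (4 higher, 8 lower of 12) and the genes of SREBP processing and sterol-driven degradation (2 higher, 8 lower of 10) had 0 at an unadjusted p under 0.05. Of 19 fatty acid oxidation genes 8 were higher and 11 lower (median -0.03), with 1 at an unadjusted p under 0.05, Cpt1b (0.47).

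Markers of other cells were read in the same samples, and their part in the values above was not tested. In bulk samples fewer cells of a type and less RNA per cell cannot be told apart. The summed signal of 9 of 10 adipocyte markers lay between 3.59 and 3.98 in WT and between 3.59 and 4.93 in KO (log2), that of 10 of 10 endothelial markers between 2.00 and 2.41 in WT and between 2.40 and 2.93 in KO, and that of 9 of 10 Schwann cell markers between 5.69 and 5.94 and between 6.02 and 6.10. For 10 of 10 mesenchymal markers it lay between 6.67 and 6.82 and between 6.97 and 7.11, with Pdgfra well above background on 0 of 3 WT arrays, and the same for Pck1 of the adipocyte list. Proliferation genes, 10 of 10, lay between 5.71 and 6.02 in WT and between 4.26 and 5.32 in KO. The ranges of WT and KO overlapped for the adipocyte and endothelial sums. They also overlapped for mural genes, between 7.355 and 7.379 in WT and between 7.324 and 7.424 in KO. Myofibre sums overlapped, between 5.145 and 5.568 in WT and between 5.247 and 5.504 in KO. So did satellite cell sums (6.431 to 6.671 in WT, 6.583 to 6.599 in KO) and myeloid sums (6.948 to 7.166 in WT, 6.913 to 7.062 in KO). Median marker values against the WT mean in KO samples 1, 2 and 3 were 1.60, 0.17 and 0.99 for endothelial genes, 0.42, -0.12 and 2.73 for adipocyte genes and -0.91, -0.57 and -1.81 for proliferation genes. They were 1.19, 0.28 and 0.90 for mesenchymal genes, 0.89, 0.17 and 0.47 for mural genes (10 of 10 measured), 0.84, -0.16 and 0.06 for myofibre genes (9 of 10) and 0.74, 0.62 and 1.15 for Schwann cell genes. KO sample 1, the one with high sterol enzymes, was thus the highest KO sample for the endothelial, mesenchymal, mural and myofibre medians. For the satellite cell median it was so by a small margin (0.243, as compared to 0.237 in KO sample 2). It lay between the other KO samples for the adipocyte, Schwann cell, myeloid and proliferation medians. By summed signal the highest KO sample for mural genes was KO sample 3 (7.424, with 7.382 in KO sample 1). The endothelial list held Tie1, well above background on 1 of 3 WT and 4 of 6 KO arrays. The mural list held the one marker that passed, Pdgfrb, a receptor of pericytes, which rose by 1.35 ± 0.11 (limma adjusted p = 0.0377) and read -0.94, -1.05 and -0.91 in KO. Satellite cell markers had medians of 0.24, 0.24 and 0.09 in the KO samples and myeloid markers (8 of 10) of -0.15, -0.32 and 0.17.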

How the data were processed

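The authors deposited the scanner output of 9 arrays with a linear intensity for every spot. Background subtraction, spatial detrending and surrogates for dim spots came from Agilent Feature Extraction, per the file headers, and arrays were not scaled to each other. Positions are in mm9. The log2 values that the authors deposited served as an alternative, and how they were normalized is not stated. RNA was amplified before labelling, per the labels' protocols.

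Here the log2 of the processed signal had the 75th percentile of each array over non-control spots subtracted. Outlier spots (93 to 148 per array) were left out, and 35 empty values took the mean of the probe over the other arrays. Of 55681 probes, 42983 passed the well-above-background flag on 3 or more of 9 arrays. For each gene name, as in the files, the probe with the highest mean was used. The test of KO against WT used limma 3.58.1 (lmFit, then eBayes) under R 4.3.3, statmod (1.5.0) and data.table (1.17.8), and Benjamini-Hochberg adjustment over 28380 features and a threshold of 0.05. Residual degrees of freedom were 4, and prior ones 2.04. The fit was tested on simulated data. KO arrays of equal leading number were averaged, though titles call each a biological replicate. Promoters were searched and plots drawn in Python 3.11.15 (pandas 2.3.3, matplotlib 3.10.9).

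Full values are given by a rule: members with an unadjusted p under 0.05, the 4 with the largest difference, and Srebf1, Srebf2, Nr1h2 and Nr1h3. Up to 4 genes with an unadjusted p under 0.05 are named per further list, and Cyp7b1 is named beyond this rule for its detection. The members and lists were chosen with earlier results of these data known. Alternatives covered background correction, scaling, filter, probe choice, unit of replication, slide, pairing and each sample left out.

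Slide 1 held 2 WT and 3 KO arrays, and slide 2 held 1 WT and 3 KO arrays and so has values without a test. Since every KO sample has an array on each slide, only WT samples inform the slide term.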

Additional observations from a re-analysis of the deposited data

How the results depend on the processing

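Of the 34 members 0 were called in each of 20 alternative fits, and the lowest limma adjusted p of a member was 0.277 (Scd1, all 9 arrays as separate samples). A gene that was not called may still differ, and the intervals show by how much. In 18 members the direction held in all 21 alternatives, and in 16 it turned in at least 1, most often without KO sample 1 (10 members). The count of all features called, 40, depended on the setting: it was 295 after normexp, 248 with the authors' deposited table, 104 with probes well above background on all arrays, 18 with arrays centred on the median (which moved the median of all features from -0.02 to -0.10 and left 20 members higher and 14 lower), 13 without a filter, 4 with slide as a block and 2 within slide 1. It was 1199 with all arrays separate, 546 with the sample as a random block, and 366 with slide added to that block, a fit chosen after seeing the data. If KO arrays of equal number are repeats of 1 sample, which the titles do not say, p in the fit of separate arrays is too small. Leaving out 1 sample gave 0 to 9 features. With the replicate number as a block 0 features were called (2949 at an unadjusted limma p under 0.05). Same-numbered WT and KO samples did not deviate together over all features (correlations of -0.042, 0.026 and 0.008), and not every sample matched its own number best. The sterol enzyme median did fall from number 1 to 3 in both groups (0.36, -0.01 and -0.36 in WT, 0.91, 0.05 and -0.07 in KO). With the replicate block the limma adjusted p of Sc4mol was 0.383, as compared to 0.651 without it. Whether the numbers pair the samples was not tested. With KO sample 1 taken from array 4 alone, an alternative chosen after seeing the data, 36 were called and the median of the sterol enzymes was 0.28. The cause of these shifts was not tested.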
